A study of Mus musculus with 80 samples.

Results

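The livers of male mice fed ethinyl estradiol (EE2) at 2.5 ppm in the diet for 7 d were compared with the livers of male mice fed the control diet for the same time. The members are the arrays that the labels give to these conditions, 4 arrays for EE2 at 2.5 ppm and 6 arrays for the feed control, out of 80 arrays in the series. All animals were male B6C3F1 mice, a hybrid laboratory strain, and the labels give no age. The series also holds EE2 at 1, 5 and 10 ppm, the glucocorticoid prednisone (PRED) in feed and androstenedione by gavage. Its stated subject is how these steroids affect gene expression in the male liver. EE2 is a synthetic estrogen used in oral contraceptives.

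Estrogens act mainly through estrogen receptor alpha, a nuclear receptor that binds DNA as a dimer. In the mouse liver many genes are expressed at different levels in males and females, and the main signal that sets this difference is the pattern of growth hormone release from the pituitary, which sex steroids influence. Estrogens at high doses are also known for slowing bile flow in rodents, for lowering androgen levels through the pituitary, and for acting on drug-metabolizing enzymes through the receptor CAR.

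Expression was read on Illumina bead arrays as 1 intensity per gene on a linear scale, already normalized by the authors, with array medians of 105.7 to 106.3, which is the background. Between 8125 and 8451 entries were detected per array in the 10 arrays. Feed control replicate 2 stood apart: its mean correlation with the other controls was 0.967, against 0.986 to 0.989 for the other 5. The EE2 arrays correlated with each other at 0.971 to 0.976, so they too differed more among themselves than most controls did. Nothing in the labels says that the arrays came from separate animals, so the p-values rest on differences between arrays that may be technical. The liver label was borne out by hepatocyte genes with high intensities in both groups, such as Apoa1 (means of 14281 in the controls and 13743 in EE2) and Ahsg (means of 10515 in the controls and 10345 in EE2), while the entry for Alb read near background.

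With EE2 at 2.5 ppm, Cyp17a1, a steroid-synthesis enzyme, was 31.1-fold higher and Hsd3b5, a steroid-reducing enzyme of male liver, was 40.2-fold lower than in the controls. Most male-biased liver genes were lower, 19 of 23 tested, and 10 of 20 cholesterol synthesis and uptake genes were lower. Of 19 glucocorticoid receptor targets 8 were higher. These lists were chosen with earlier results of these data known, so their counts are descriptions. In all, EE2 changed 1657 of the 11352 genes tested, 14.6%, at an adjusted p under 0.05 (limma, Benjamini-Hochberg adjustment over all genes tested). Of these, 860 genes (7.58%) were higher and 797 genes (7.02%) were lower than in the feed controls. The change was at least 1.5-fold for 297 genes that rose (2.62%) and 275 genes that fell (2.42%), and at least 2-fold for 1.02% and 0.943% of genes tested. All 4 EE2 arrays lay above all 6 controls for 628 genes (5.53%) and below them for 650 genes (5.73%). The median change over all genes tested was 0.00 on the log2 scale. Without EE2 replicate 2, 667 genes were higher and 526 lower. Without feed control replicate 2, 763 genes were higher and 642 lower, and the called members were 19 in the male-biased list, 10 in the female-biased list, 9 in the cholesterol list and 7 in the glucocorticoid receptor list. On the 2 chips that held arrays of both groups, 98.2% and 94.7% of the called genes moved the same way as in the whole comparison, 1 EE2 array against 1 control on each chip, although these arrays are part of that comparison. The first chip paired EE2 replicate 2 with feed control replicate 3. The second paired EE2 replicate 1 with feed control replicate 2, the control that stood apart. With chip as a block in the model the counts were 1008 and 913, and in a fit of only the 2 groups compared 593 and 563. In a fit of only the EE2 groups and the feed control of 7 d, added after seeing the data, the counts were 346 and 447, and 36 of the genes named for this comparison were no longer past the threshold.

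**Figure D1:**
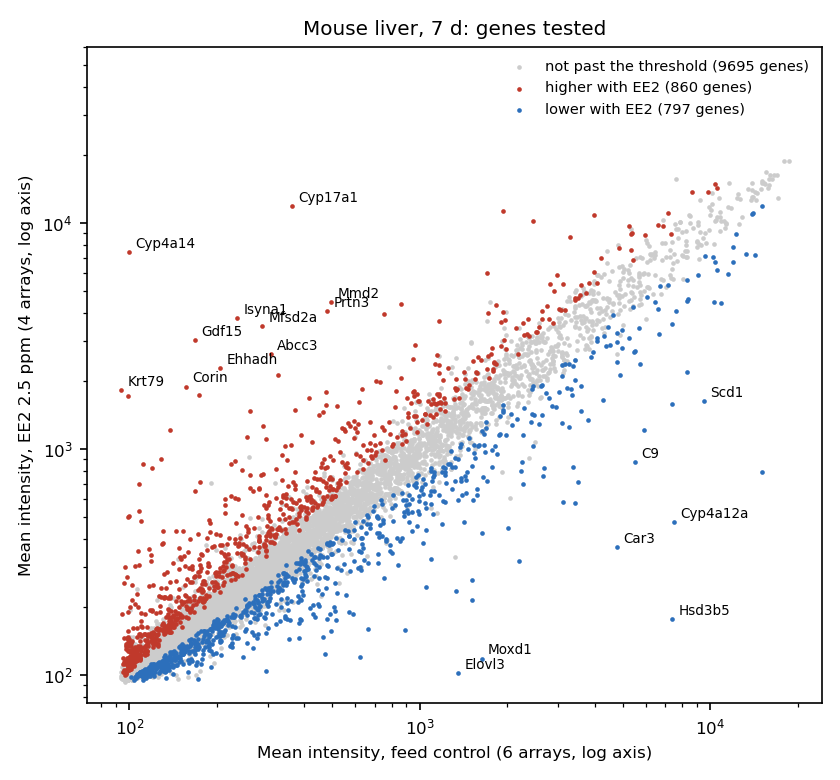
Each point is 1 of the 11352 genes tested, with its mean intensity in the 6 feed controls on the x axis and in the 4 EE2 arrays on the y axis, both on log scales. The 860 genes higher with EE2 are red and the 797 genes lower are blue, with Cyp17a1 and Cyp4a14 far above the diagonal and Hsd3b5 far below it.

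Cyp17a1, the enzyme that makes androgen precursors from progestins, read 193.2 to 491 with a median of 377 in the controls and 8264, 16265, 8751 and 14310 in EE2 replicates 1 to 4. Every EE2 array was far above every control, and Cyp17a1 rose (log2 change 4.96, SE 0.36, adjusted p = 5.58e-17). Cyp4a14, a fatty acid omega-hydroxylase that is higher in female than in male mice, was detected on none of the controls, which read 96.4 to 102.9 with a median of 100.2, and on all 4 EE2 arrays at 11573, 659.8, 6384 and 11028. The EE2 arrays spread widely, with replicate 2 the lowest, and the rise was at least 41.2-fold (adjusted p = 1.02e-07). Because the Cyp4a genes are close relatives, a bead probe may not separate them.

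Gdf15, a secreted stress hormone, ran from 129.9 to 183.8 with a median of 175.5 in the controls and read 1426, 3443, 3034 and 4210.3 in EE2. It rose on every EE2 array with no overlap (log2 change 3.95, SE 0.28, adjusted p = 9.87e-18). Isyna1, which makes inositol phosphate from glucose 6-phosphate, ran from 132.4 to 571 with a median of 169.3 in the controls, the highest being replicate 2, and read 1687, 7254, 3431 and 2795 in EE2. The lowest EE2 array of Isyna1 was still above the highest control (log2 change 3.92, SE 0.55, adjusted p = 1.74e-07). Mfsd2a, a transporter of lysophosphatidylcholine into cells, ran from 191.3 to 398 with a median of 288 in the controls and read 3101, 4872, 2748 and 3272 in EE2, again without overlap (log2 change 3.54, SE 0.48, adjusted p = 9.85e-08).

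Corin, a protease best known for processing atrial natriuretic peptide, had the smallest standard error of the 12 largest rises and read 124.9 to 206 with a median of 152.7 in the controls and 1223, 2638, 1888 and 1812 in EE2. It rose on all EE2 arrays (log2 change 3.43, SE 0.19, adjusted p = 3.23e-22). Ehhadh, an enzyme of peroxisomal fatty acid oxidation, read 1120.3, 3054, 2683 and 2249 in EE2 against 137.5 to 249 with a median of 217 in the controls. The groups were separate (log2 change 3.31, SE 0.35, adjusted p = 6.00e-11). Abcc3, an efflux pump on the blood side of hepatocytes, read 2316, 2661, 2147 and 3377 in EE2 and 193.9 to 399.9 with a median of 314 in the controls, a rise on every array (log2 change 3.05, SE 0.27, adjusted p = 1.33e-13).

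Prtn3, a serine protease of neutrophil granules, read 2382, 4782, 5965 and 3162 in EE2, all above controls of 178.6 to 1373 with a median of 342 (log2 change 3.32, SE 0.56, adjusted p = 9.19e-06). Prtn3 was the 1 member of 6 tested neutrophil markers past the threshold. The summed intensity of the list ran from 761.1 to 1954 in the controls and from 3474 to 7599 in EE2, where most of it was Prtn3 itself. The neutrophil genes S100a8, S100a9 and Mpo had log2 changes of 0.26, 0.18 and 0.05, none past the threshold, and Mpo was near background in both groups. The part of neutrophils in the rise of Prtn3 was not tested. Mmd2 (log2 change 3.23, SE 0.30, adjusted p = 4.43e-13) also rose without overlap. Krt79, a keratin, was detected on no control and on all 4 EE2 arrays at 138.3, 3619, 2459.8 and 1043, a rise of at least 9.36-fold (adjusted p = 3.00e-07), with replicate 1 close to background. Dbp, a transcription factor of the clock output, read 2860.3, 2653, 1489 and 1525 in EE2 and 185.5 to 793 with a median of 245 in the controls, where replicate 2 was the highest (log2 change 2.78, SE 0.83, adjusted p = 0.0143).

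**Figure D2:**
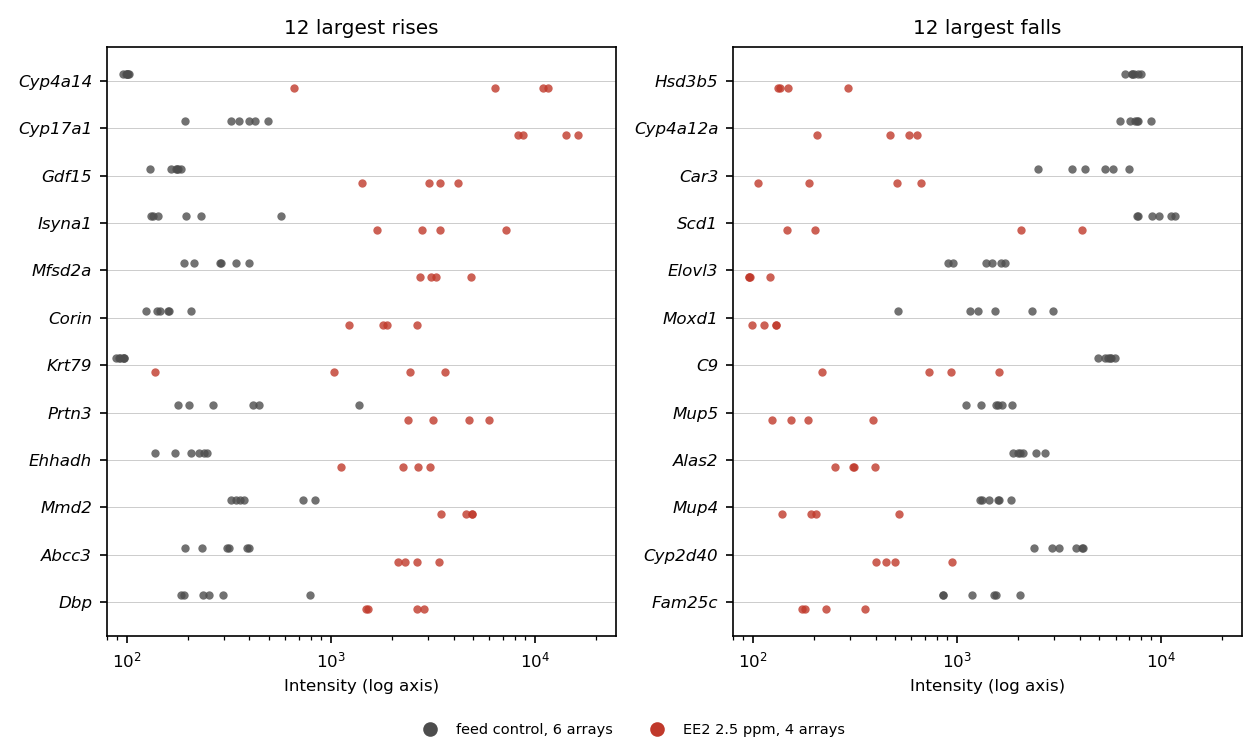
Intensity on each array, on a log axis, of the 12 genes with the largest rises and the 12 with the largest falls, with 6 feed controls and 4 EE2 arrays per gene. In all 24 genes the EE2 arrays lie wholly above or wholly below the controls, and Cyp4a14, Krt79 and Scd1 spread most among the EE2 arrays.

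The largest fall was that of Hsd3b5, a steroid-reducing member of the 3-beta-hydroxysteroid dehydrogenase family expressed in male liver. Its intensity was 6668 to 8029 with a median of 7309.8 in the controls and 148.4, 292, 135.96 and 133.3 in EE2. The EE2 arrays approached background, with replicate 2 the highest of them (log2 change -5.33, SE 0.25, adjusted p = 1.26e-26). Cyp4a12a, a male-biased fatty acid hydroxylase, read 6279 to 8999.7 with a median of 7535 in the controls and 473, 207, 584 and 642 in EE2. All 4 EE2 arrays were low (log2 change -4.04, SE 0.35, adjusted p = 8.25e-14). Elovl3, which elongates very long fatty acids, read 907 to 1728 with a median of 1447 in the controls and 121.2, 96.1, 95.7 and 96.8 in EE2 and was detected on 1 of the 4 EE2 arrays (log2 change -3.50, SE 0.32, adjusted p = 2.64e-13).

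Scd1, the desaturase that makes oleate, read 7609 to 11762 with a median of 9423 in the controls and 202, 2067, 4108 and 146.9 in EE2. Every EE2 array was below every control, but replicates 1 and 4 were far lower than replicates 2 and 3 (log2 change -3.66, SE 0.68, adjusted p = 4.83e-05). Car3, a cytosolic carbonic anhydrase, read 2504 to 7025 with a median of 4771 in the controls and 669, 106.5, 188.6 and 508 in EE2, all lower (log2 change -3.88, SE 0.55, adjusted p = 2.71e-07). Moxd1, a monooxygenase related to dopamine beta-hydroxylase, read 516 to 2947 with a median of 1407 in the controls and 129.6, 113.7, 130.8 and 99.7 in EE2. The EE2 values were at or near background on all 4 arrays (log2 change -3.43, SE 0.62, adjusted p = 3.80e-05). C9, the pore-forming end of complement, read 4913 to 5996 with a median of 5555 and 939.7, 1614, 733 and 219 in controls and EE2 (log2 change -2.93, SE 0.50, adjusted p = 1.45e-05), with replicate 4 the lowest.

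Major urinary proteins carry pheromones into mouse urine and are male-biased in liver. Mup5 ran from 1111 to 1867 with a median of 1575 in the controls and read 124.6, 390.2, 186.7 and 154.9 in EE2 (log2 change -2.84, SE 0.33, adjusted p = 9.43e-10). Mup4 read 1295 to 1846 with a median of 1514 in the controls and 138.5, 519.9, 193.9 and 204 in EE2, at least 6.13-fold lower between the means of log2(intensity + 16) (adjusted p = 5.13e-08). The groups were separate for both genes, but the authors' detection p-value did not follow these signals, since 4 of 6 controls detected Mup5 and 2 of 6 Mup4, and the near-identical Mup genes may share probes. Alas2, the erythroid form of the first enzyme of heme synthesis, read 1883 to 2712 with a median of 2080.2 in the controls and 398, 254, 314 and 309 in EE2, all of them lower (log2 change -2.73, SE 0.22, adjusted p = 3.34e-15). Cyp2d40 (log2 change -2.60, SE 0.23, adjusted p = 8.17e-14) and Fam25c (log2 change -2.41, SE 0.37, adjusted p = 1.66e-06) fell without overlap.

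Genes were also read by list, 27 lists of pathways and 11 of cell types. The counts of called members stand against 7.58% higher and 7.02% lower among all genes tested. The lists and their members were chosen with earlier results of these data known, so the counts describe the lists and test nothing. Members named beyond the 4 largest changes of a list were picked after their values were seen. Of 23 tested male-biased liver genes 19 fell and 0 rose, against 7.02% lower among all genes. Their median log2 change was -1.39 (0.00 over all genes), and -0.79 and -1.15 within the 2 shared chips. Beside the genes above, Selenbp2 (-2.02), a selenium-binding protein, Serpina12 (-1.76), the adipokine vaspin, and Egfr (-1.39), the receptor of epidermal growth factor, fell. Smaller falls were those of Mup1 (-0.34) and Serpina1e (-0.38), which belong to families of near-identical genes. Cyp7b1, the oxysterol hydroxylase, had a log2 change of 0.08 and was not past the threshold (adjusted p = 0.826). Averaged over the list, EE2 replicates 1 to 4 were at -1.62, -1.32, -1.37 and -1.77 from the control mean on the log2 scale, while the controls ran from -0.07 to 0.09.

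Of 16 tested female-biased genes, 10 were higher and 0 lower, with a median of 0.33. Cux2, a repressor of male-biased genes in female liver, read 236, 216, 145.2 and 266 in EE2 and 99.2 to 103.9 with a median of 102.5 in the controls, with no overlap (log2 change 0.94, SE 0.16, adjusted p = 1.71e-05). Cyp2b9, a female-biased drug-metabolizing P450, split the EE2 arrays, which read 4118, 97.5, 137.1 and 2522 against controls of 96.6 to 103.1 with a median of 99. Replicates 1 and 4 were high, replicate 3 slightly raised and replicate 2 within the controls, and the rise was at least 5.54-fold (adjusted p = 0.00106). Acot3, a peroxisomal acyl-CoA thioesterase, rose by 1.69, and Vldlr, a lipoprotein receptor detected on 1 control, by 0.29. A1bg, detected on no control, was at least 1.24-fold higher. The count was 5 in a fit of the 2 groups alone and 4 in that of the EE2 groups and feed control.

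Esr1, which encodes estrogen receptor alpha, was in the table but was detected on too few arrays to be tested. Of 10 tested estrogen receptor targets known mainly from other tissues, 3 were higher and 1 lower, with a median of 0.04. Lifr, a cytokine receptor subunit, rose (log2 change 0.96, SE 0.14, adjusted p = 3.00e-07), as did Cxcl12, a chemokine (0.71, adjusted p = 8.70e-04), and Vegfa, an angiogenic factor (0.43, adjusted p = 0.0333). Vegfa lost the call without EE2 replicate 2, 3 or 4 and without feed control replicate 1 or 2 (adjusted p from 0.0595 to 0.126), and in the fit of the EE2 groups and feed control (0.12). Pdzk1, a scaffold for membrane transporters, fell with overlapping groups (-0.52, adjusted p = 0.0266), a call lost without EE2 replicate 2 or 3 or feed control replicate 4 (0.3, 0.188 and 0.0525). Greb1, an estrogen-induced gene in breast cells, stayed near background at 93.1 to 100.5 with a median of 98.6 in the controls and 96.7, 122.3, 100.1 and 104.01 in EE2 (0.09, adjusted p = 0.602). Of 3 tested steroid hormone receptors 0 were past limma's threshold, with 0 at an unadjusted p under 0.05.

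In the growth hormone and IGF axis 4 of 15 tested genes were higher and 2 lower, with a median of -0.05. Stat5a, a transcription factor that growth hormone and prolactin activate, read 174.3 to 269 with a median of 210.3 in the controls and 295, 495, 580.5 and 883 in EE2, all higher (log2 change 1.25, SE 0.17, adjusted p = 9.85e-08). Prlr, the prolactin receptor, rose (log2 change 0.82, SE 0.17, adjusted p = 3.11e-04). Igf1, the circulating growth factor made by the liver under growth hormone, read 3817 to 6124 with a median of 4219 in the controls and 2415, 3597, 3235 and 2259 in EE2, where all 4 arrays were lower (log2 change -0.66, SE 0.17, adjusted p = 0.00514). Bcl6, a repressor of female-biased genes in male liver, fell (log2 change -1.45, SE 0.41, adjusted p = 0.00933). Ghr, the growth hormone receptor, had a log2 change of -0.09 and Socs2, a feedback inhibitor, of 1.19, neither past the threshold (adjusted p = 0.787 and adjusted p = 0.211).

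Among 11 tested steroid-metabolizing enzymes 1 was higher, Cyp17a1, and 3 were lower. Beside Hsd3b5, the bile acid enzyme Hsd3b7 fell, reading 10855 to 12836 with a median of 12137 in the controls and 9924, 4957, 6051 and 10313 in EE2 (log2 change -0.69, SE 0.15, adjusted p = 4.90e-04). Replicates 2 and 3 were well below the controls and replicates 1 and 4 only just below. Srd5a2, a steroid 5-alpha-reductase, fell by a smaller amount from near background (-0.24). Of 10 tested conjugation enzymes 1 was higher, Sult1a1, a phenol sulfotransferase (0.74), and 2 were lower, the sulfotransferase Sult2a8 (log2 change -1.999, SE 0.39, adjusted p = 1.23e-04) and the glucuronosyltransferase Ugt2b1 (-1.58). Sult1e1, the estrogen sulfotransferase, was near background at 95.7 to 106.9 with a median of 99.7 in the controls and 102.02, 123.9, 106.05 and 98.9 in EE2 (0.08, adjusted p = 0.613).

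Bile acid genes changed in both directions, with 2 of 14 synthesis genes higher and 3 lower. In the fit of the EE2 groups and feed control 1 was lower, as Hsd3b7 (adjusted p = 0.0568) and Scp2 (0.171) lost the call. Cyp8b1, the sterol 12-alpha-hydroxylase that directs synthesis to cholic acid, read 7546 to 9239.6 with a median of 8306 in the controls and 4242, 1923, 899.5 and 1744 in EE2. All EE2 arrays were lower, replicate 3 most of all (log2 change -2.13, SE 0.37, adjusted p = 1.43e-05). Cyp7a1, the rate-limiting enzyme, read 357 to 931 with a median of 487 in the controls and 730.4, 1483, 541 and 1025 in EE2, so the groups overlapped and the test did not call it (log2 change 0.77, SE 0.56, adjusted p = 0.411). Acox2, which shortens the sterol side chain in peroxisomes, read 2694 to 3266 with a median of 2939.5 in the controls and 6189, 5593, 5914 and 5748 in EE2, higher on every array (log2 change 0.98, SE 0.12, adjusted p = 1.45e-08). Scp2, a peroxisomal sterol carrier and thiolase, fell with overlapping groups (-0.45), and Cyp39a1, an oxysterol hydroxylase, rose by 0.30 near background.

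Of 14 tested bile acid and organic anion transporters, 2 were higher and 3 lower, or 1 lower in the fit of the EE2 groups and feed control. Abcb11, the bile salt export pump, read 811 to 1406 with a median of 1329.6 in the controls and 686, 639, 783 and 950.1 in EE2. It fell, but the lowest control lay among the EE2 arrays (log2 change -0.66, SE 0.17, adjusted p = 0.00519). Slc22a7, an organic anion uptake carrier, read 341 to 587 with a median of 457 in the controls and 152.8, 145.7, 137.4 and 152.4 in EE2, all near background and below every control (log2 change -1.54, SE 0.16, adjusted p = 1.40e-11). Slc10a1, the sodium-dependent bile acid uptake carrier, read near background in both groups, 116.9 to 152.5 with a median of 135.9 in the controls and 148.2, 147.7, 162.2 and 171.6 in EE2 (log2 change 0.22, SE 0.12, adjusted p = 0.252). Abcc3, described above, and Abcg5, a sterol efflux pump (log2 change 0.66, SE 0.18, adjusted p = 0.00587), rose.

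Nr1i3, the nuclear receptor CAR, rose most among 17 nuclear receptors and liver factors, 4 of which were higher and 4 lower. Nr1i3 read 415 to 539.6 with a median of 458 in the controls and 1752, 1454, 1256 and 1364 in EE2, with no overlap (log2 change 1.61, SE 0.21, adjusted p = 3.66e-08). The related receptor PXR, encoded by Nr1i2, rose by 0.63 and Hnf4a by 0.61, while the liver factors Foxa1 (-0.74) and Cebpa (-0.71) fell with overlapping groups. Among 13 tested CAR and PXR targets, which are detoxification genes, 3 were higher and 1 lower, with a median of 0.42 and medians of 0.04 and 1.01 within the shared chips. Cyp2c39, a P450, read 105.7 to 138.8 with a median of 116.02 in the controls and 1183, 590, 635 and 877 in EE2 (log2 change 2.58, SE 0.24, adjusted p = 6.53e-13). Por, the reductase that supplies electrons to P450 enzymes, read 220.2 to 376 with a median of 233 and 1474, 1524, 719.7 and 819.6 (log2 change 2.03, SE 0.30, adjusted p = 4.00e-07). Cyp3a11, the main drug-metabolizing P450 of mouse liver, read 355 to 898 with a median of 732 and 3168, 1475, 1645 and 1740 (log2 change 1.48, SE 0.40, adjusted p = 0.00711), and all 3 genes were higher on each EE2 array. Aldh1a1, retinal dehydrogenase, fell with overlapping groups (-1.07), and the CAR target Cyp2b10 was near background (0.16, adjusted p = 0.381).

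Of 19 tested glucocorticoid receptor targets 8 rose and 0 fell, with a median of 0.51. The lowest log2 change of the list was -0.97, in a gene not past the threshold. Fkbp5, a chaperone of the receptor, read 139.9 to 242 with a median of 152.8 in the controls and 798, 791, 490.2 and 536 in EE2, with no overlap (log2 change 1.86, SE 0.30, adjusted p = 3.79e-06). Sds, a serine-degrading enzyme, read 1299 to 2526 with a median of 1500.4 in the controls and 4737, 8512, 4838 and 5862 in EE2 (log2 change 1.80, SE 0.29, adjusted p = 2.89e-06). The kinase gene Sgk1 read 525 to 1111 with a median of 678 in the controls and 1765, 2641, 1795 and 1698 in EE2 (log2 change 1.44, SE 0.28, adjusted p = 8.99e-05). In all 3 genes the EE2 arrays were above the controls. Per1 is described with the clock, Ddit4, an inhibitor of mTOR signalling, rose by 1.02, and Mt2, a metallothionein, by 1.08. Over the list, the 4 EE2 arrays were 0.64, 0.85, 0.70 and 0.40 above the control mean, against -0.19 to 0.21 in the controls. The count was 5 without EE2 replicate 3.

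Sds is also in the next list. Of 21 tested genes of gluconeogenesis and amino acid catabolism, 8 were higher (5 in the fit of the EE2 groups and feed control) and 1 lower, with a median of 0.24. Asl, of the urea cycle (1.08), Sdsl (1.06) and the alanine aminotransferase Gpt2 (0.91) rose, and Fbp1, fructose bisphosphatase, fell (-0.42). A gene not past the threshold had the lowest log2 change of the list, -0.97. In inositol metabolism, Isyna1 and the oxygenase Miox (0.41) rose, and the other 4 tested genes were not past the threshold. In the integrated and endoplasmic reticulum stress list 5 of 16 rose (3 in that fit) and 0 fell, with a median of 0.22. Trib3, a pseudokinase of the ATF4 response, read 123.2 to 149.1 with a median of 125.6 in the controls and 474, 176.7, 424 and 463 in EE2, separate from the controls with replicate 2 the lowest (log2 change 1.35, SE 0.19, adjusted p = 2.14e-07). Herpud1, of protein degradation, rose by 0.89 and Psat1, of serine synthesis, by 0.57. Of 19 NRF2 targets, antioxidant genes, 2 were higher and 1 lower, which is near the shares of all genes.

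**Figure D3:**
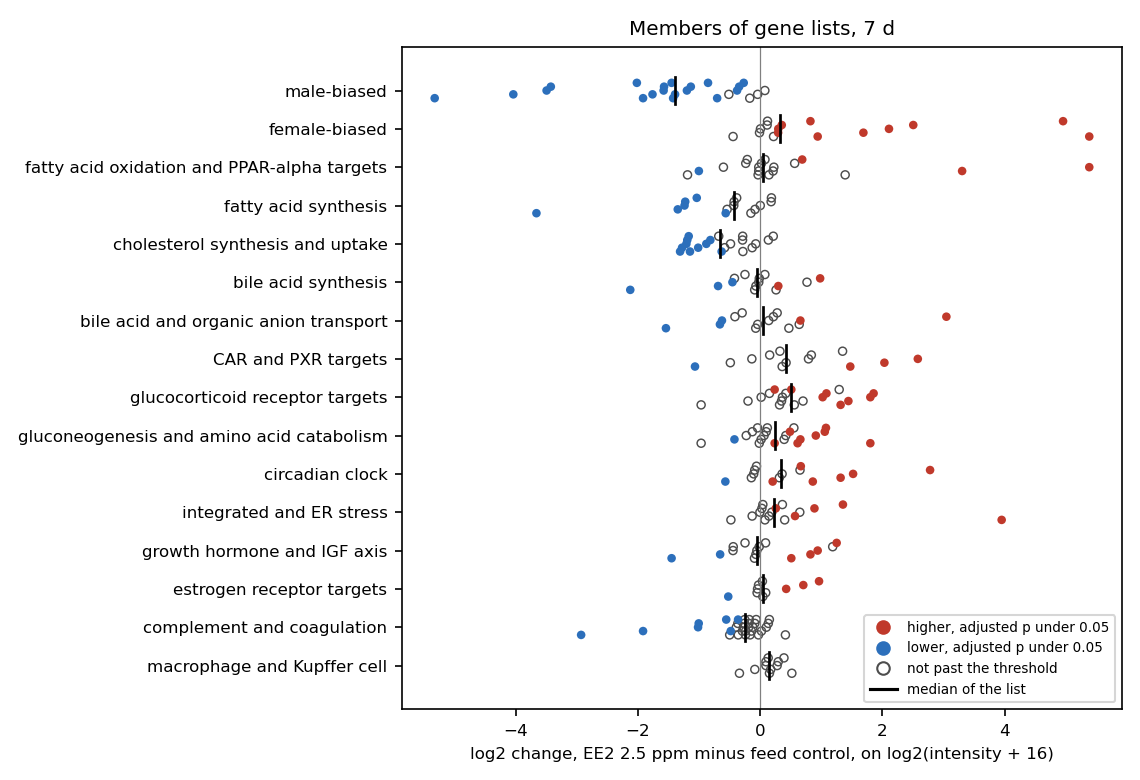
Log2 change of each tested member of the gene lists, 1 point per gene, with members past the threshold coloured and the list median as a bar. Male-biased genes (median -1.39) and cholesterol genes (median -0.65) lie mostly below 0, and glucocorticoid receptor targets (median 0.51) mostly above.

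Of 15 tested fatty acid synthesis genes, which make and desaturate fats from citrate, 6 were lower and 0 higher, with a median of -0.43, and all 6 were below every control. Beside Scd1, the elongases Elovl6, at 645 to 1272 with a median of 710.3 in the controls and 156.6, 326, 464 and 441 in EE2 (log2 change -1.24, SE 0.37, adjusted p = 0.0136), and Elovl5, at 8751 to 12669 with a median of 10263 and 5703, 4108, 3272 and 4711 (log2 change -1.23, SE 0.21, adjusted p = 1.94e-05), fell. The desaturases Fads2 (-1.35) and Fads1 (-0.56) and ATP citrate lyase, Acly (-1.04), also fell. The count was 4 without EE2 replicate 1 and 3 in the fit of the EE2 groups and feed control.

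Cholesterol synthesis runs from acetyl-CoA through squalene and lanosterol, and its genes are switched on together by SREBP2 when sterols are low. Of 20 tested members 10 were lower and 0 higher, with a median of -0.65. Sc5d, a late desaturase, read 388 to 648 with a median of 483 in the controls and 182.7, 208, 178.9 and 175.9 in EE2 (log2 change -1.31, SE 0.19, adjusted p = 2.49e-07). Dhcr7, the last reductase, read 447 to 691 with a median of 544 and 129.9, 229, 281 and 266 (log2 change -1.28, SE 0.20, adjusted p = 1.33e-06), and Tm7sf2, a sterol C14 reductase, 306 to 449 with a median of 339 and 120.4, 167.03, 157.5 and 133.3 (log2 change -1.21, SE 0.14, adjusted p = 1.30e-09). The EE2 arrays of all 3 genes lay below the controls. Sqle, squalene epoxidase, read 508 to 899.9 with a median of 742 in the controls and 128.7, 602, 383 and 261 in EE2, where replicate 2 overlapped the controls (log2 change -1.19, SE 0.41, adjusted p = 0.0378). Mvd (-1.17), Pmvk (-1.01), Cyp51 (-1.15), Nsdhl (-0.88) and Msmo1 (-0.82), all enzymes of the route, and Insig1 (-0.63), which holds SREBP2 back, were also lower. The arrays differed: the list mean was -1.30, -0.18, -0.43 and -0.71 from the controls in EE2 replicates 1 to 4. The list median within the shared chips was -0.04 on the chip with EE2 replicate 2 and -1.14 on the chip with EE2 replicate 1. The control on the latter chip was feed control replicate 2, which stood apart.

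The 250 bases before the starts of the genes of this list, lower or not, were searched for the CCAAT box. This is the binding sequence of NF-Y, a usual partner of SREBP2. The box was CCAAT on either strand, which overlaps none of the other letters searched. It was present in 13 of the 14 windows that RefSeq gave for the 20 genes (92.9%), in 36.4% of the 8515 windows of genes tested and in 34.5% of all 27025 windows. The windows with the box include those of Hsd17b7, Idi1, Insig2, Lss and Srebf2, which were not past the threshold. The share thus describes the list and not the genes that fell. The match is a description and not a binding site. The windows of the cholesterol genes with 2 of the clearest falls are shown with the box in capitals, Sc5d at chr9:42264301-42264550 and Tm7sf2 at chr19:6067851-6068100, both on the minus strand of GRCm38.p6. Both hold the box as its reverse complement, and the 1 window of the 14 with no match was that of Dhcr7.
Sc5d: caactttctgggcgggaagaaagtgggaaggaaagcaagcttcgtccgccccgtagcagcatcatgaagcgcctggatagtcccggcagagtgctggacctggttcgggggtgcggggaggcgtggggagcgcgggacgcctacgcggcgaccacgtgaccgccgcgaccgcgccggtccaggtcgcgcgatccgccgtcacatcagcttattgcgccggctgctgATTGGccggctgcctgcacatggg
Tm7sf2: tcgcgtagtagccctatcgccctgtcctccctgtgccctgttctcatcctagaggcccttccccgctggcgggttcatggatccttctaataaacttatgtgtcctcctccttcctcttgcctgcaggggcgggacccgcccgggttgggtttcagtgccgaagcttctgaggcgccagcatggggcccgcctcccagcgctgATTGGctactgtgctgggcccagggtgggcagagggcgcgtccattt

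Of 18 tested fatty acid oxidation and PPAR-alpha targets, 3 were higher and 1 lower, with a median of 0.05. Acadm, a mitochondrial acyl-CoA dehydrogenase, read 4828 to 5793 with a median of 5480 in the controls and 12871, 6852, 6207 and 10350 in EE2, above the controls with replicates 1 and 4 the highest (log2 change 0.69, SE 0.18, adjusted p = 0.00377). Cyp4a14 and Ehhadh, described above, were the others that rose, and Plin2, a lipid droplet coat protein, fell with overlapping groups (-1.003, adjusted p = 0.0326). The list mean was 0.99, 0.13, 0.04 and 0.77 above the controls in EE2 replicates 1 to 4. The PPAR-alpha target Pdk4, a regulator of glucose oxidation, was not past the threshold (-0.03, adjusted p = 0.965). Among 16 apolipoproteins and lipoprotein enzymes 1 rose, near the 7.58% of all genes. It was Apoa4, at 3174 to 5027 with a median of 3786 in the controls and 13041, 10502, 6034 and 13573 in EE2 (log2 change 1.38, SE 0.30, adjusted p = 5.28e-04).

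Complement and coagulation genes were lower for 7 of 31 tested and higher for 0, with a median of -0.24. Of these 7, 5 encode parts of the membrane attack complex, which pierces target membranes. C6 read 2021 to 2612 with a median of 2214 in the controls and 468, 1365, 710 and 254 in EE2, all lower, replicate 4 most (log2 change -1.92, SE 0.33, adjusted p = 1.80e-05). C8a (-1.01), C8b (-1.02), C9 and Hc (-0.56), which encodes C5, fell with it, as did Plg, plasminogen (-0.48), and F10, coagulation factor X (-0.36), while the complex's C8g had a log2 change of -0.25 and was not past the threshold (adjusted p = 0.137). The count was 4 without EE2 replicate 2 or without replicate 3, and 3 in the fit of the EE2 groups and feed control. Of 19 acute phase genes 1 rose, near the 7.58% of all genes. It was Crp, C-reactive protein (log2 change 0.62, SE 0.12, adjusted p = 1.11e-04), and the list mean of the EE2 arrays ran from -0.93 to 0.71.

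Serpina6, the plasma carrier of glucocorticoids, read 1459.7 to 2396 with a median of 1721 in the controls and 1354, 370.1, 345 and 1268 in EE2. All 4 EE2 arrays were below the controls, but replicates 1 and 4 by little (log2 change -1.33, SE 0.38, adjusted p = 0.0112). Agt, angiotensinogen, rose (0.90), and the other 9 tested plasma carriers were not past the threshold. In iron and heme metabolism 3 of 16 genes rose. Slc40a1, the iron exporter ferroportin, read 2669 to 4056 with a median of 3139.6 in the controls and 7904, 8719, 7515 and 10557 in EE2, with no overlap (log2 change 1.41, SE 0.16, adjusted p = 2.93e-10). Alas1, the liver form of the first enzyme of heme synthesis and a CAR target, read 810.2 to 4400.1 with a median of 2307 and 10846, 13830, 8840 and 7365, also separate (log2 change 2.18, SE 0.47, adjusted p = 4.96e-04), and Id1, a target of BMP signalling, rose by 1.43. Hamp, which encodes hepcidin, had a log2 change of 0.29 (adjusted p = 0.61).

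The circadian clock drives daily cycles of liver transcription through E-boxes bound by CLOCK and BMAL1. Of 14 tested clock genes 6 were higher and 1 lower, with a median of 0.34 and medians of 0.48 and 0.36 within the shared chips. Ciart, a repressor of the clock, read 99.6 to 125.2 with a median of 105.1 in the controls and 319, 572, 276 and 254 in EE2 (log2 change 1.52, SE 0.29, adjusted p = 6.38e-05). Per1, a core repressor, read 106.7 to 131.5 with a median of 116.8 in the controls and 306, 373, 284 and 316 in EE2 (log2 change 1.32, SE 0.21, adjusted p = 3.46e-06). Both were higher on every EE2 array, as were Dbp and Tef, related output factors (Tef 0.86), while Arntl, which encodes BMAL1, fell (-0.57, adjusted p = 0.0388). Per2 also rose (0.67), and Per3, detected on no control, was at least 1.09-fold higher (adjusted p = 0.0213). The hour at which the livers were taken is not given in the labels, and the count of higher genes was 3 without EE2 replicate 1 or without replicate 2 and 2 in the fit of the EE2 groups and feed control.

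The E-box CACGTG, a palindrome and so the same on both strands, was in 3 of the 12 clock gene windows that RefSeq gave (25.0%), in 8.27% of the windows of genes tested and in 6.05% of all windows. The windows were those of Ciart, at chr3:95882229-95882478 on the minus strand, Per1, at chr11:69098699-69098948 on the plus strand, and Tef, at chr15:81802423-81802672 on the plus strand of GRCm38.p6. They are shown with the E-box in capitals, as windows of genes named for their rise, and Ciart holds it 3 times. The match is a description and not a binding site, and its part in the rises was not tested. The letters are not in the window of Dbp, the clock gene that rose most.
Ciart: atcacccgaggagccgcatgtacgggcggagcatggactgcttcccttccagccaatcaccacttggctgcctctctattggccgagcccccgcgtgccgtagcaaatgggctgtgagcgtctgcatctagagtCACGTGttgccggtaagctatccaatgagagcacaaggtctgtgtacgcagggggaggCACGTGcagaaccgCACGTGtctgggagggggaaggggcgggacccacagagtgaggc
Per1: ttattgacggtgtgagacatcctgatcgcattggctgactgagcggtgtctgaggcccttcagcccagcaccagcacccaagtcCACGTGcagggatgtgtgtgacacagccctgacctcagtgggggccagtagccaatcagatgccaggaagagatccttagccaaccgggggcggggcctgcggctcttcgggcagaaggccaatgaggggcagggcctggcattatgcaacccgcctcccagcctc
Tef: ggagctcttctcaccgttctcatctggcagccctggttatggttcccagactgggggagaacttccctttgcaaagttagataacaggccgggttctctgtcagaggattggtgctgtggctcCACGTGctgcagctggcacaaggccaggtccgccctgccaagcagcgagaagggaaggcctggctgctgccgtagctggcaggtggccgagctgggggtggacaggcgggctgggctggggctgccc

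Of 17 tested cell cycle genes 1 was lower, Ccnd1, cyclin D1 (-0.84), and 0 were higher, near the shares of all genes. Of 11 tested interferon-stimulated genes 0 were past limma's adjusted threshold and 2 were lower at an unadjusted p under 0.05, with a median of -0.32. Ifit3 (-0.75, adjusted p = 0.0966) and Rsad2 (-0.66, adjusted p = 0.211), both antiviral, had the lowest values of that list.

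The markers of other cells in the liver were mostly not past the threshold. In bulk tissue, fewer cells of a type and less RNA per cell cannot be told apart. Of 11 tested macrophage and Kupffer cell markers 0 were past limma's adjusted threshold and 1 was higher at an unadjusted p under 0.05, but the EE2 arrays differed widely in them. Their summed intensity ran from 4616 to 6625 in the controls and from 2630 to 16797 in EE2. The list mean was -0.02, 1.14, 0.28 and -0.79 from the controls in EE2 replicates 1 to 4, so replicate 2 was high and replicate 4 low. Vsig4, a Kupffer cell complement receptor, read 1065 to 1449 with a median of 1324 in the controls and 1679.9, 4965, 1627 and 435 in EE2, and C1qb, of complement C1q, 759.5 to 1386 with a median of 1032 and 1111, 3497, 1546 and 451. EE2 replicate 2 was above all controls in both genes and replicate 4 below all of them.

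Among erythroid markers Alas2 and the alpha-globin gene Hba-a1 fell, 2 of 6, against 7.02% lower among all genes. Hba-a1 read 7609 to 13114 with a median of 11926 in the controls and 2604, 7135, 5998 and 1990.1 in EE2, all lower (log2 change -1.46, SE 0.45, adjusted p = 0.0185). The summed erythroid intensity, most of it Hba-a1 itself, ran from 10250 to 16540 in the controls and from 2726 to 7940 in EE2. Of 10 endothelial markers Lyve1, a hyaluronan receptor, rose with overlapping groups (0.93) and Eng, endoglin, fell (-0.63). Of 11 stellate cell markers 3 were lower, all overlapping the controls: Reln (-0.58), Pdgfrb, near background (-0.15), and Col1a1, detected on no EE2 array (at least 1.22-fold lower, adjusted p = 0.0193). The call of Reln was lost without EE2 replicate 3 (adjusted p = 0.125), that of Pdgfrb without EE2 replicate 1 or 3 or feed control replicate 1 or 2 (0.0558 to 0.103), and that of Col1a1 without feed control replicate 1 or 2 (0.0826 and 0.0937). Cela1, an elastase in the list of pancreatic acinar markers, read 1729.9 to 2478 with a median of 1958 in the controls and 360.3, 363, 473 and 594 in EE2 (log2 change -2.15, SE 0.26, adjusted p = 4.11e-09), while the acinar genes Cela2a (0.28) and Ctrb1 (0.01) were near background. In the hepatocyte list 1 of 9 was higher, Hnf4a, in the T and NK cell list 1 of 7 lower, Cd4, at background (at least 1.03-fold lower, adjusted p = 0.0347, lost without EE2 replicate 1, 3 or 4 or feed control replicate 1, 2 or 3), and in the adipocyte list 1 of 2 higher, Cidec (at least 1.43-fold). Of 4 cholangiocyte and 2 B cell markers 0 were past limma's adjusted threshold, and 1 of each was past an unadjusted p of 0.05. A call of 1 gene in such short lists does not stand apart from the shares of all genes (7.58% higher and 7.02% lower). The part of cell composition in the results was not tested.

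**Figure D4:**
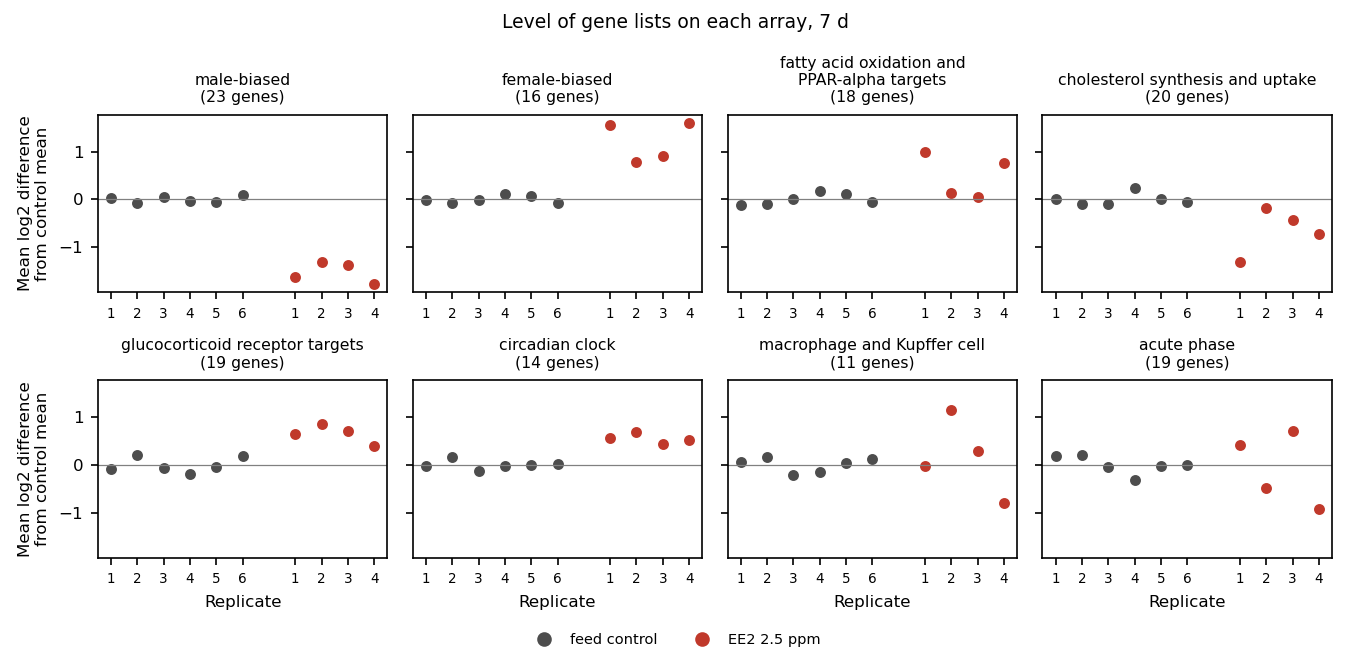
Mean log2 difference of each gene list from the mean of the feed controls, 1 point per array for 6 controls and 4 EE2 arrays. The male-biased list lies between -1.77 and -1.32 in EE2, and the macrophage list spreads from -0.79 to 1.14.

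The doses on either side were compared directly with 2.5 ppm, 4 arrays each. Against 1 ppm, limma called 0 genes higher (257 at an unadjusted p under 0.05) and 1 gene lower at 2.5 ppm (0.00881% of genes tested), Phf11d (log2 change -0.71, SE 0.12, adjusted p = 0.00269), named after its value was seen. Cyp17a1 read 10200, 5948, 6526 and 11762 at 1 ppm (0.46 from 1 to 2.5 ppm, adjusted p = 1) and Hsd3b5 read 401, 184.5, 1428 and 178.1 (-1.09, adjusted p = 0.199). A p that misses the threshold does not show that the doses act alike.

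Against 5 ppm, 17 genes were higher (0.15%) and 13 lower (0.115%) at the higher dose, but 0 and 0 in limma fits of the 2 groups alone or of the EE2 groups and feed control (259 and 258 in the latter at an unadjusted p under 0.05). Cd63, a membrane protein of late endosomes, read 186.6, 166.96, 163.6 and 177.1 at 2.5 ppm and 492, 196.4, 264 and 312 at 5 ppm, higher on every array (log2 change 0.74, SE 0.13, adjusted p = 0.00494). Cyp8b1 read 171.4, 3013, 750.2 and 176.6 at 5 ppm, overlapping the 2.5 ppm arrays (log2 change -1.83, SE 0.40, adjusted p = 0.025). F10 read 6852, 4700.5, 4467 and 4978 at 2.5 ppm and 2431, 4309, 3663 and 3651 at 5 ppm, all lower (log2 change -0.59, SE 0.14, adjusted p = 0.0419). Rars, arginyl-tRNA synthetase, was higher (0.47), and Arhgap22, past the threshold (adjusted p = 0.0379), was detected on 0 arrays of the lower dose and 1 of the higher. With replicate 2 of 5 ppm left out the counts were 252 and 215.

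Against 10 ppm, 682 genes were higher (6.01%) and 475 lower (4.18%) at 10 ppm, 10.2% in all. These counts come from the fit over all 19 groups of the series. With the 2 groups alone they were 1 and 5, and with the EE2 groups and the feed control 0 and 0 by limma (896 and 821 at an unadjusted p under 0.05). Cyp8b1 read 115.3, 301, 110.8 and 515 at 10 ppm, all below the 2.5 ppm arrays (log2 change -3.05, SE 0.40, adjusted p = 1.01e-06). Cyp7a1 read 103.3, 313, 95.2 and 187.99 at 10 ppm, also lower on every array (log2 change -2.38, SE 0.61, adjusted p = 0.00823). Upp2, uridine phosphorylase, rose against the control at 2.5 ppm (1.90, adjusted p = 0.00414) and read 926, 2230.3, 1382 and 1386 there and 148.5, 918, 202 and 345 at 10 ppm (log2 change -2.10, SE 0.54, adjusted p = 0.00772). Ces3, a carboxylesterase, was lower too (-2.13).

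Anxa2, a calcium-dependent membrane-binding protein, read 512, 678, 742 and 498 at 2.5 ppm and 1679.9, 1992, 3203 and 2003 at 10 ppm, higher on every array (log2 change 1.82, SE 0.28, adjusted p = 1.17e-05). Aqp8, a water channel of the bile canaliculus, read 316, 2498, 2588 and 2455 and 4231, 5219, 8739 and 6932 (log2 change 1.99, SE 0.54, adjusted p = 0.0116), with replicate 1 at 2.5 ppm the lowest. Osbpl3 (1.97), a lipid-binding protein, and Nedd9 (2.09), an adhesion scaffold, were higher at 10 ppm. Between these doses the female-biased list had 7 of 16 genes lower at 10 ppm (median -0.31), Cyp2b9 among them (-2.42, adjusted p = 0.00838). Of the CAR and PXR targets 6 of 13 were lower (median -0.80), and of the cholesterol genes 5 of 20 were higher (median 0.40). The macrophage markers had 4 of 11 higher (median 1.09), and leaving out 1 array moved that count between 0 and 10. In the fits on fewer groups all of these list counts were 0.

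Other large responses missed the threshold between 2.5 and 10 ppm, which does not show that they were equal: Cyp17a1 (log2 change -0.29, SE 0.40, adjusted p = 0.741), Hsd3b5 (log2 change -0.35, SE 0.27, adjusted p = 0.47) and Gdf15 (log2 change 0.18, SE 0.30, adjusted p = 0.801). Isyna1 was higher at 10 ppm (log2 change 1.84, SE 0.60, adjusted p = 0.039).

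**Figure D5:**
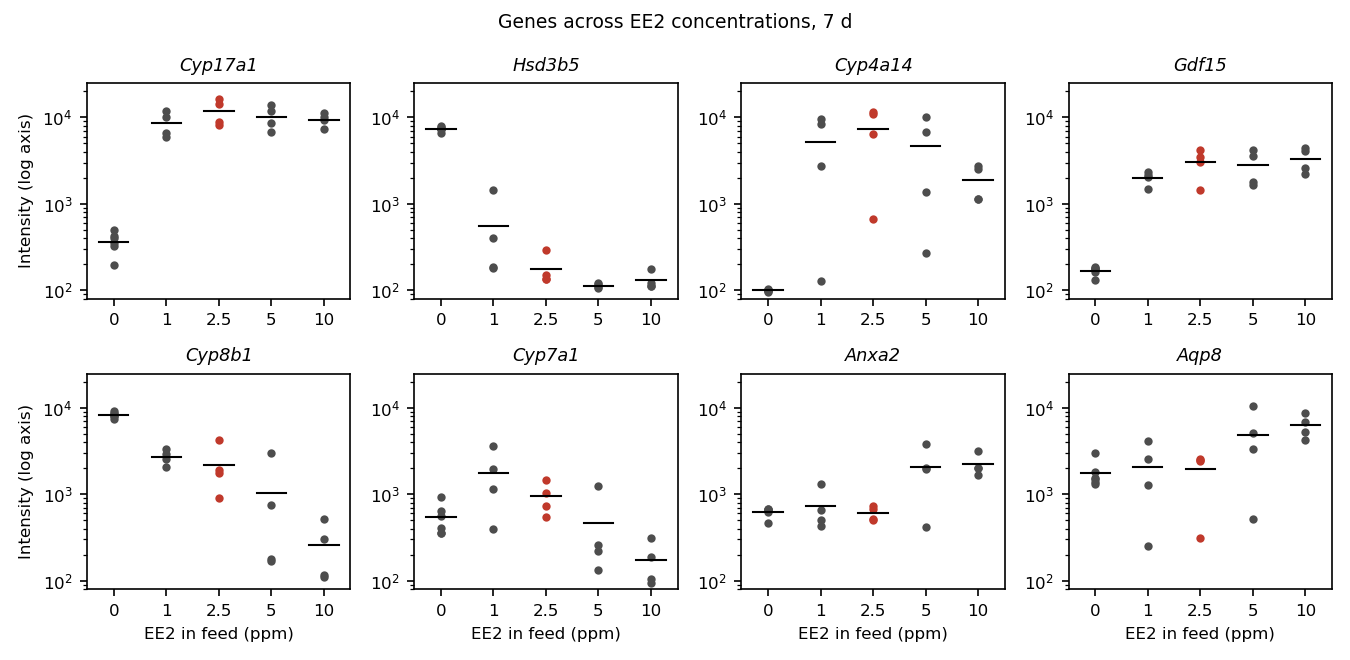
Intensity per array, on a log axis, for the feed control and EE2 at 1, 2.5, 5 and 10 ppm for 7 d. Cyp17a1 and Hsd3b5 are far from the 6 controls at each of the 4 doses, and Cyp8b1 is lower at 10 ppm than at 2.5 ppm on every array.

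PRED at 2.5 ppm in feed for 7 d, with 4 arrays, gave another steroid at the same concentration in feed. PRED is a synthetic glucocorticoid that the liver turns into prednisolone, which acts on another receptor than EE2 does. Against the feed control, limma called 0 genes higher and 0 lower under PRED (0% each), with 200 and 196 at an unadjusted p under 0.05. Compared directly, 656 genes were higher (5.78%) and 462 lower (4.07%) under EE2, 9.85% in all. Cyp4a14 (log2 change 5.31, SE 0.81, adjusted p = 1.87e-06), Prtn3 (3.83), Isyna1 (3.77) and Gdf15 (3.66) were highest under EE2, and Hsd3b5 (log2 change -5.01, SE 0.27, adjusted p = 4.76e-23), Cyp4a12a (-3.83), Scd1 (-3.73) and Elovl3 (-3.46) lowest. Of the male-biased genes 18 of 23 were lower, of the female-biased 9 of 16 higher and of the cholesterol genes 10 of 20 lower under EE2.

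The PRED arrays themselves were uneven. Cyp17a1 read 241, 459, 2526 and 3734 on them, and the EE2 arrays were above all of these (log2 change 3.46, SE 0.40, adjusted p = 1.26e-09). Fkbp5 read 118.98, 133.4, 382 and 379 under PRED, so EE2 at 2.5 ppm had the higher level of this glucocorticoid target on every array (log2 change 1.46, SE 0.33, adjusted p = 0.00126). Of 19 glucocorticoid receptor targets 4 were higher and 1 lower under EE2. With the 2 groups alone the counts were 245 and 198.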

How the data were processed

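Per the labels' protocols, liver RNA was cleaned on columns, made into biotinylated cRNA and hybridised to Illumina bead arrays, read with GenomeStudio per the submitters' processing notes. The authors deposited normalized intensities, 1 for each symbol on each array, which are linear and run from 85.9 to 19761. They also deposited a detection p-value with every intensity. How the intensities were normalized is not stated here, and background seems to be still in them. Signal over background and the number of arrays limit the precision.

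Of 18138 entries, 8 array controls were left out, and 21 symbols changed into dates were restored from a second value table with equal intensities. Older symbols were updated through RefSeq for 2679 entries. A gene was tested where its detection p was under 0.05 on at least 4 of the 80 arrays, as for 11352 genes. The model was limma 3.58.1 (R 4.3.3) on log2(intensity + 16), in 1 fit over 19 groups with 61 residual degrees of freedom, so all groups shared the spread of each gene. Tests were two-sided with Benjamini-Hochberg adjustment over all genes tested and a threshold of 0.05. A change on this scale understates that of low genes. Where no array of a group detected a gene, its fold is a lower bound, taken against its own signal or the lowest detected signal of each array, whichever was higher, between means on the log2 scale. The method was tested on simulated data with known changes.

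Groups came from the labels and replicate numbers only name arrays in accession order. The 38 gene lists hold 562 genes, of which 515 were in the table and 451 were tested; a detection filter passed a gene through any group. Lists are described by counts and medians without a test. Members and lists were chosen with earlier results of these data known. Named genes were the 12 largest rises and 12 largest falls past the threshold whose groups did not overlap, predicted genes excepted, the 4 largest each way in each direct contrast, the 4 largest called members per list, and a fixed set of hormone and bile acid genes. Arrays sat on 10 chips, 2 of which held both groups. Promoter windows came from RefSeq's GRCm38.p6 table. Alternatives were other pseudocounts, filters, blocks for chip and for the number in the sample names, a second quantile normalization, an intensity trend, fits on fewer groups, and leaving out each array. Some list members are counted but not reported here by name.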

Additional observations from a re-analysis of the deposited data

Results flagged for a closer look

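The genes named for the largest changes, and the hormone and bile acid genes named in any case, were screened for outlying values. In 33 genes and 66 groups, 6 values lay far from the others of their group, where chance gives about 1 in 20 groups. Several came from the same array, so the groups are not independent. In feed control replicate 2, the array that stood apart over all genes, Gdf15 was the lowest at 129.9 (next 164.2), Isyna1 the highest at 570.7 (next 232) and Dbp the highest at 793.2 (next 296.7). Among the EE2 arrays, Hsd3b5 was highest in replicate 2 at 292.2 (next 148.4) and Elovl3 highest in replicate 1 at 121.2 (next 96.8). Greb1 was lowest in feed control replicate 1 at 93.13 (next 97.73), all at background.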

How the results depend on the processing

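Of the genes named for EE2 2.5 ppm against the feed control, 67 kept their call under every alternative run, 37 lost it under at least 1 and 0 reversed. Leaving out 1 array ended the call of 20: Acadm, Aldh1a1, Ccnd1, Cd4, Cebpa, Col1a1, Elovl6, Foxa1, Hba-a1, Miox, Pdgfrb, Pdzk1, Plin2, Reln, Scp2, Serpina6, Sqle, Sult1a1, Tef and Vegfa, at adjusted p from 0.0516 (Cd4) to 0.3 (Pdzk1). A limma fit of the 4 EE2 groups and the feed control of 7 d, added after seeing the data, lowered the counts most: 346 genes higher and 447 lower. In it the called members were 4 female-biased genes, 1 of bile acid synthesis, 1 of bile acid transport, 3 of fatty acid synthesis, 5 of gluconeogenesis, 3 of stress, 3 of complement and 2 of the clock. There Scd1 (adjusted p = 0.0563), C9 (0.0581), Igf1 (0.0583), Abcb11 (0.0641), Ciart (0.0611) and Cyp2b9 (0.172) lost the call. The median within-group SD on the log2 scale was 0.105 at EE2 2.5 ppm, 0.118, 0.132 and 0.113 at 1, 5 and 10 ppm, and 0.0976 in the feed controls. In the other groups it ran from 0.0732 (androstenedione at 20 mg/kg/day for 7 d) to 0.109 (PRED at 1.25 ppm for 7 d). Most of these lay below the EE2 groups of 7 d. The fit over all groups thus used a spread drawn largely from groups tighter than the EE2 arrays. With only the 2 groups compared, 593 genes were higher and 563 lower, and the female-biased count was 5.

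The dose contrasts depended on the fit. Against 1 ppm the gene lower at 2.5 ppm was lost (0) in both fits on fewer groups, by limma. Against 5 ppm the counts were 10 higher and 6 lower without the filter on low values, and 0 and 0 in both fits on fewer groups. Against 10 ppm they were 1 and 5 with the 2 groups alone and 0 and 0 with the EE2 groups. Against PRED they were 245 and 198 with the 2 groups alone. Unadjusted counts stand in the report. The cause was not tested.

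Leaving out each array in turn gave, against the feed control, 667 to 847 genes higher and 526 to 818 lower, both lowest without EE2 replicate 2. Against 1 ppm it gave 0 to 14 and 0 to 4, against 5 ppm 2 to 252 and 0 to 215, against 10 ppm 294 to 1132 and 194 to 778, the highest without EE2 10 ppm replicate 2, and against PRED 470 to 642 and 324 to 476. Called members ran from 18 to 19 in the male-biased list, 8 to 11 female-biased, 8 to 11 cholesterol, 4 to 6 fatty acid synthesis, 4 to 8 complement, 5 to 8 glucocorticoid receptor, 7 to 8 gluconeogenesis, 3 to 6 clock, 3 to 4 CAR and PXR, 2 to 3 bile acid synthesis, 3 to 4 bile acid transport and 4 to 5 stress. The median of bile acid and organic anion transport, 0.05, was -0.0876 within 1 shared chip.

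No paired analysis was possible because the replicate numbers were given in accession order. Sample names hold another number, which 2 feed controls share. In the whole series 9 such numbers were shared, by 19 arrays. As a random block over the series the number gave a correlation of 0.378, which is not that between the 2 feed controls. With this block the counts were 775 and 665. Genes near background could not be measured at these signals.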
